A study of Rattus norvegicus with 2 samples.

Results

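The serotonin receptor genes Htr1a, Htr1b, Htr1d, Htr1f, Htr2a, Htr2c, Htr3a, Htr4 and Htr7 were followed in nuclei of the rat orbitofrontal cortex, the part of prefrontal cortex above the orbits that tracks the value of outcomes. They were chosen by symbol, and each of the 9 was found once in the gene table of both single-nucleus libraries, among 25399 genes. The METH library came from male Sprague-Dawley rats, 8 weeks old, that received methamphetamine (METH, a psychostimulant that releases monoamines) at 1 mg/kg by intraperitoneal injection for 7 days. The saline library came from rats of the same strain, sex and age that received saline by the same route for 7 days, and all animals were deeply anaesthetised with pentobarbital before the tissue was taken. Tissue of 4 animals per group was used and each group is 1 library. The labels do not say whether the animals' tissue was pooled. Because neither group has a second library, the difference between animals cannot be estimated. No test was possible, and every value describes these libraries only.

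Serotonin reaches the cortex in axons of the raphe nuclei and acts there on receptors of several families. The Htr1 receptors couple to Gi proteins and lower cAMP, Htr2a and Htr2c couple to Gq and raise inositol phosphates and calcium, and Htr4 and Htr7 couple to Gs and raise cAMP. Htr3a encodes the core subunit of a serotonin-gated cation channel, the only ion channel among these receptors. In rodent cortex Htr2a is best known from pyramidal neurons and Htr3a from interneurons that derive from the caudal ganglionic eminence.

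Unique molecular identifiers (UMIs, each a counted RNA molecule) were summed over the nuclei of a cell group in each library and divided by that group's total, and the result is given in CPM, the usual depth-scaled count. Levels carry exact Poisson 95% intervals, shares of nuclei exact Clopper-Pearson 95% intervals, and log2 ratios of METH over saline exact conditional 95% intervals. Ratios with subclasses weighted alike in both libraries carry normal approximate 95% intervals instead. Where no UMI was counted, the limit given is that of 3 counts, which lies below the upper exact bound. All of these cover counting error only. The METH library held 44969322 UMIs in 5543 barcodes and the saline library 42221257 in 6969, with 9 barcode sequences in common between the libraries, and 5159 METH and 6509 saline nuclei were used. Nuclei were clustered with the receptor genes left out and named from marker genes, so each class or subclass name means a likeness to those cells in the markers. The named neurons were 2191 METH and 3537 saline excitatory nuclei and 1292 METH and 1233 saline inhibitory nuclei, with median depths of 9350 and 6116 UMIs in METH nuclei and of 6398 and 4379 UMIs in saline nuclei. Fewer cells and less RNA per cell cannot be told apart where a class total changes. An excitatory cluster led by Pld5 was left unnamed and is called the Pld5 cluster. Its layer 2/3 markers led, at a level of 0.419 of the highest cluster, against 0.264 for layer 4/5 markers. Its top genes, however, held the layer 4/5 marker Rorb and no layer 2/3 marker.

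The 9 genes separated into 4 that were counted well in neurons and 5 that were sparse in every named class. Over all barcodes Htr2c had 3665 UMIs in METH and 3546 in saline, Htr2a 2942 and 3339, Htr4 2032 and 1479, and Htr3a 414 and 233. The other 5 genes held between 3 (Htr1d) and 51 (Htr1f) UMIs in the METH library and between 6 and 36 in the saline library. A level counts tagged molecules of its own gene, and levels of different genes are not compared here.

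**Figure D1:**
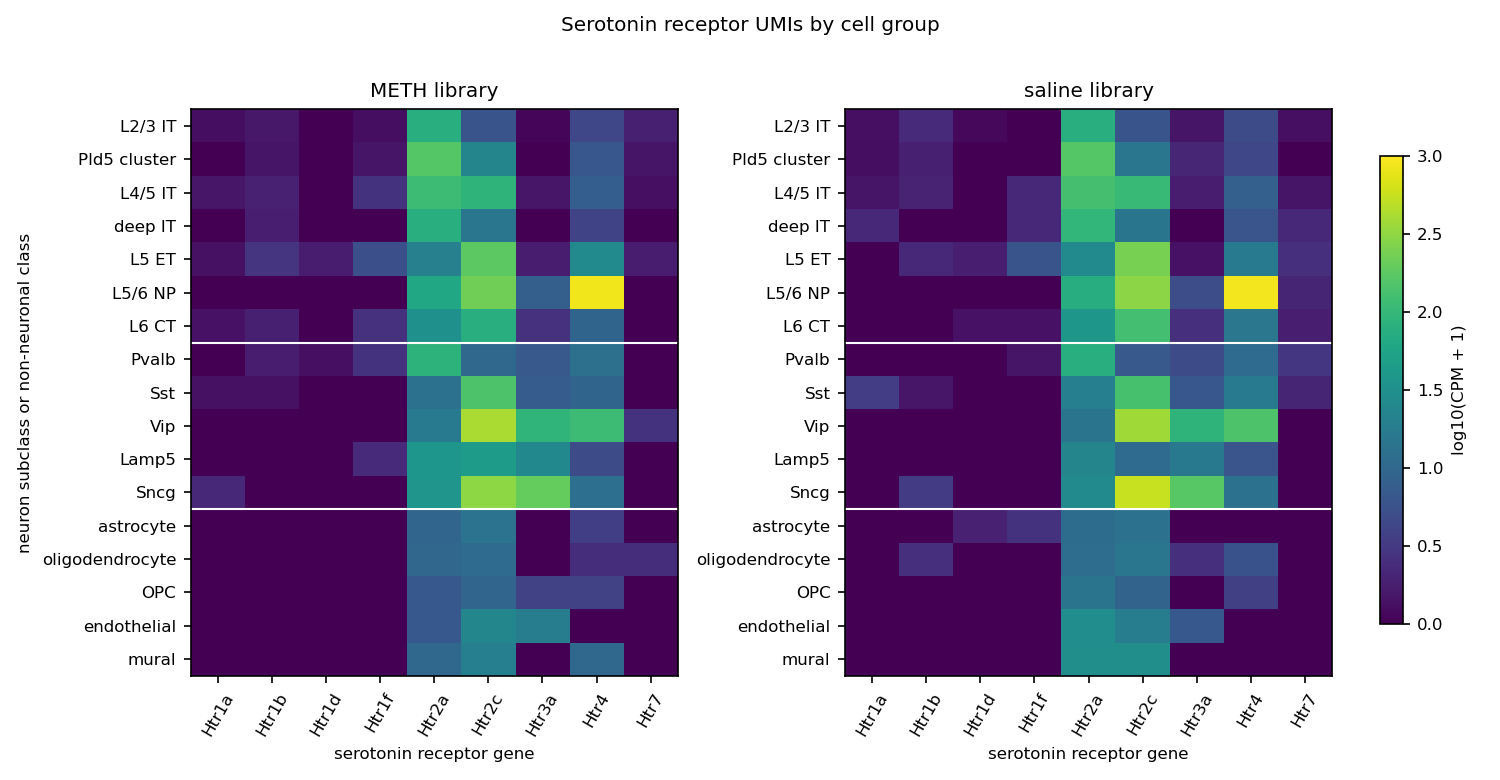
Levels of the 9 receptor genes, as log10(CPM + 1), in 12 neuron subclasses and 5 non-neuronal classes of the METH library (left) and the saline library (right). Htr2a, Htr2c, Htr3a and Htr4 each have their own pattern over the neuron subclasses in both libraries. Htr4 reaches 855 CPM in METH and 889 CPM in saline L5/6 NP neurons, and the other 5 genes stay dark.

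Among the Gi-coupled receptors, Htr1f was highest among the 12 neuron subclasses in layer 5 extratelencephalic (L5 ET) neurons, the cells that project to the brainstem and other subcortical targets. It had 12 UMIs (4.38 CPM, 2.26 to 7.64) in METH and 13 UMIs (5.09 CPM, 2.71 to 8.70) in saline L5 ET nuclei. Layer 4/5 intratelencephalic (L4/5 IT) neurons had 10 UMIs in each library (1.73 CPM, 0.828 to 3.17, in METH and 1.23 CPM, 0.589 to 2.26, in saline), an interval that overlapped with that of L5 ET neurons in METH and not in saline. Htr1a, the main inhibitory serotonin receptor of cortical pyramidal cells, had 7 UMIs in METH and 9 UMIs in saline excitatory nuclei, at 0.307 and 0.350 CPM. Htr1b, known from axon terminals, had 18 UMIs (0.791 CPM) in METH and 22 UMIs (0.856 CPM) in saline excitatory nuclei. Htr1d was listed at 2 and 4 UMIs there. All of these genes fell below the 20 CPM and 100 UMIs that a ratio was required to have, so no METH over saline ratio is given for them. In astrocytes Htr1a and Htr1b had 0 UMIs in both libraries, which allows a level of up to 2.56 CPM in METH and 2.65 CPM in saline, above the levels counted in excitatory neurons. A difference of Htr1a or Htr1b between excitatory neurons and astrocytes was therefore not detectable at this depth.

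Htr2a is the Gq-coupled receptor through which hallucinogens act. It was spread over the Pld5 cluster, intratelencephalic (IT) neurons of upper to deep layers and Pvalb interneurons, the fast-spiking basket and chandelier cells. Its highest subclass level was in the Pld5 cluster, with 326 UMIs (161 CPM, interval 144 to 180) in METH and 580 UMIs (161 CPM, 148 to 174) in saline. L4/5 IT neurons followed with 113 CPM in METH and 128 CPM in saline. Deep IT neurons had 76.1 CPM in METH and 95.7 CPM in saline, and layer 2/3 IT neurons had 76.5 and 77.1 CPM. The intervals of deep IT and layer 2/3 IT neurons overlapped in both libraries. Near-projecting (L5/6 NP) neurons of layers 5 and 6, which send only short axons, had 60.5 CPM in METH and 73.0 CPM in saline. The projection neurons of the deepest output layers were lower. L6 corticothalamic (L6 CT) neurons had 31.2 CPM in METH and 37.3 CPM in saline, and L5 ET neurons 19.3 and 26.6 CPM.

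Within inhibitory nuclei Htr2a was highest in the Pvalb subclass, at 86.1 CPM (75.8 to 97.5) in METH and 75.0 CPM (63.6 to 87.8) in saline. Lamp5 (36.3 and 22.2 CPM), Sncg (35.2 and 26.5 CPM), Vip (16.7 and 13.2 CPM) and Sst (12.2 and 18.9 CPM) interneurons had lower levels. In these fast-spiking cells a UMI of Htr2a was seen in 37.5% of METH and 29.8% of saline Pvalb nuclei. It was seen in 2.34% of METH and 2.12% of saline astrocytes, a type used here for the background of free RNA. Astrocytes were shallower, with median depths of 2422 UMIs in METH and 2005 UMIs in saline against 6766 and 4779 UMIs in Pvalb nuclei. With each nucleus thinned to 1000 UMIs, the Pvalb shares were 7.75% in METH and 5.68% in saline, and the astrocyte shares 0.235% and 1.39%. The Pld5 cluster stood at 17.6% in METH and 14.1% in saline after thinning, without which its shares were 66.8% and 54.9%.

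Htr2a also differed between clusters of the same subclass. The L4/5 IT neurons formed a cluster led by Hgf and Angpt1 and another led by Il1rapl2 and Mctp2. The Hgf cluster was named L4/5 IT because Hgf, one of that subclass's markers, was among its top genes, while its marker level of 0.536 was close to the 0.513 of L5/6 NP. Htr2a was at 152 CPM in METH and 181 CPM in saline nuclei of the Hgf cluster, and at 76.0 and 75.4 CPM in the Il1rapl2 cluster. Of the 3 Pvalb clusters, those led by Egflam (101 CPM in METH and 88.1 CPM in saline) and Mybpc1 (101 and 69.2 CPM) stood above the cluster led by Il1rapl2 and Ndst3 (51.6 and 57.6 CPM) in METH, where their intervals did not overlap with its own. In saline the intervals of all 3 overlapped.

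**Figure D2:**
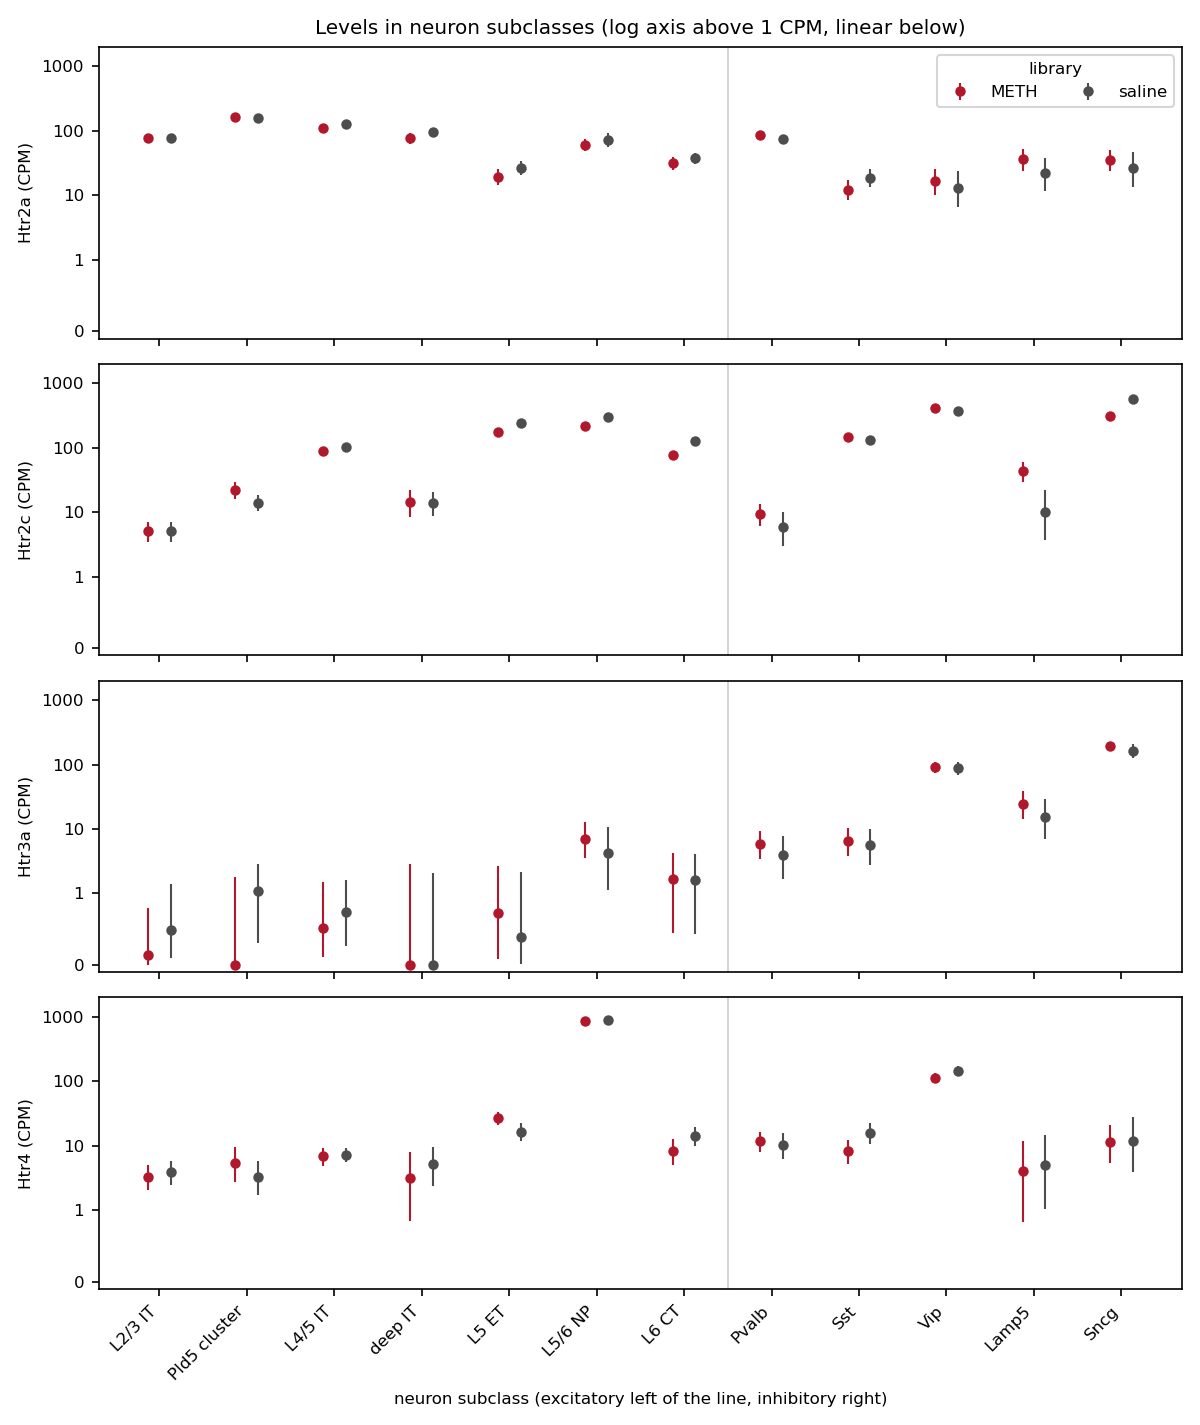
CPM of Htr2a, Htr2c, Htr3a and Htr4 in each of 12 neuron subclasses, with METH (red) left of saline (grey) and exact Poisson 95% intervals as bars, on an axis that is logarithmic above 1 CPM. Htr4 peaks in L5/6 NP neurons, Htr3a in Sncg interneurons, Htr2a in the Pld5 cluster and Htr2c in Vip and Sncg interneurons, in both libraries.

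Htr2c, the other Gq-coupled receptor, whose messenger RNA is known to be edited, was highest in other subclasses than Htr2a and overlapped with it in some. Sncg interneurons, the CCK and Cnr1 expressing basket cells, had 275 UMIs (312 CPM, 276 to 351) in METH and 232 UMIs (560 CPM, 490 to 637) in saline. Vip interneurons, which mostly inhibit other interneurons, had 474 UMIs (415 CPM, 379 to 455) in METH and 309 UMIs (370 CPM, 330 to 413) in saline. Vip was higher than Sncg in METH and lower than Sncg in saline, with intervals that did not overlap in either library. A single METH Vip nucleus held 99 of these UMIs. Without it the METH Vip level was 332 CPM (299 to 367), an interval that overlapped with that of all METH Sncg neurons. Without its own highest nucleus METH Sncg was at 258 CPM (225 to 294), an interval below that of Vip. Among excitatory neurons Htr2c was highest in L5/6 NP neurons (220 CPM in METH and 303 CPM in saline) and L5 ET neurons (174 and 243 CPM). L6 CT neurons had 77.0 CPM in METH and 126 CPM in saline, and L4/5 IT neurons 88.0 and 103 CPM. Layer 2/3 IT neurons, where Htr2a was plentiful, had 35 Htr2c UMIs (5.01 CPM) in METH and 31 (5.02 CPM) in saline.

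Most of the Htr2c of a subclass sat in a part of it. The small Vip cluster led by Cpne4 and Ntng1, with Calb2 among its top genes, had 340 UMIs over 44 METH nuclei (1427 CPM) and 176 UMIs over 34 saline nuclei (1212 CPM). The main Vip cluster, led by Vip and Chat, had 148 CPM in METH and 193 CPM in saline. The nucleus with 99 UMIs belonged to this cluster and held 29.1% of its METH UMIs. Without the highest nucleus of each library the cluster's level was 1056 CPM in METH and 1111 CPM in saline. Of the Sst interneurons, which target dendrites, the cluster led by Qrfpr and Pard3b had 493 CPM (441 to 551) in METH and 417 CPM (355 to 485) in saline. The Sst clusters led by Adgrv1 (24.3 CPM in METH and 30.6 CPM in saline) and Pappa2 (6.24 and 20.5 CPM) had little. The L4/5 IT level came from the Hgf cluster, with 173 CPM in METH and 192 CPM in saline, against 9.29 and 14.4 CPM in the Il1rapl2 cluster. Hgf cluster nuclei were therefore high in both Gq-coupled receptors, and a UMI of both was found in 94 of 272 METH nuclei (34.6%, 28.9 to 40.5) and 154 of 533 saline nuclei (28.9%, 25.1 to 32.9).

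**Figure D3:**
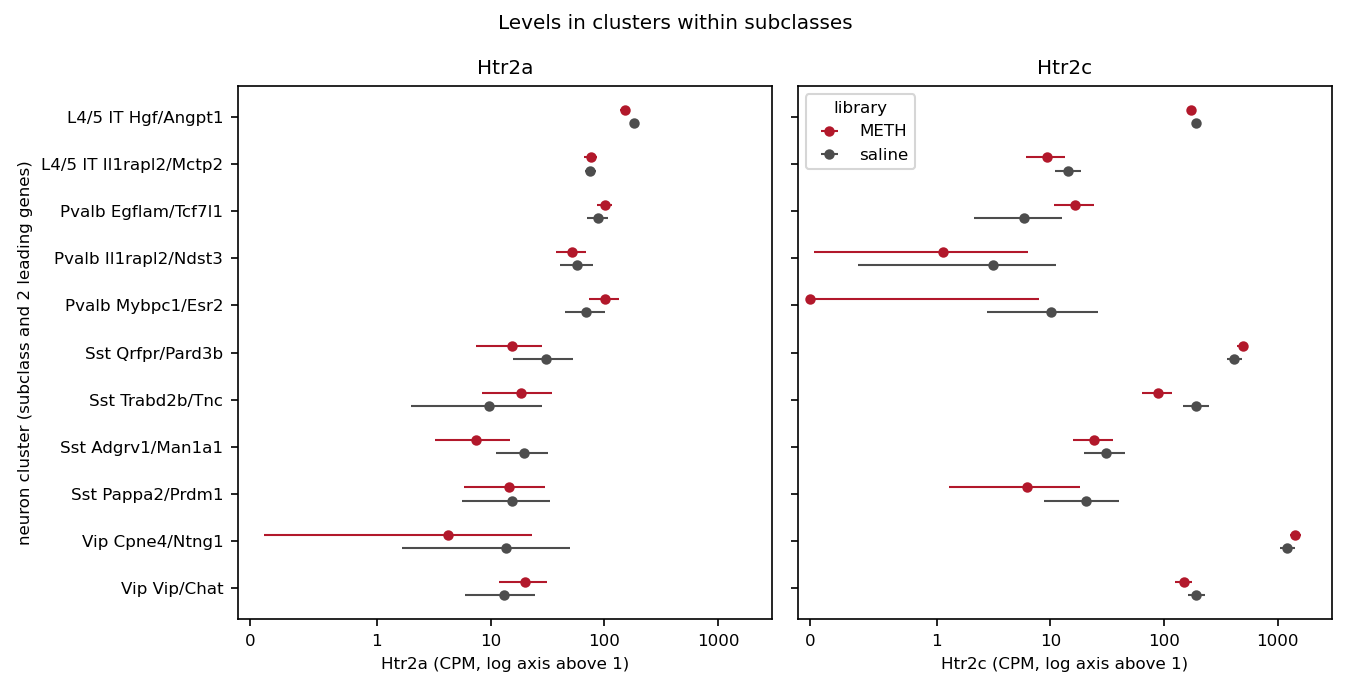
CPM of Htr2a (left) and Htr2c (right) in 11 clusters within the L4/5 IT, Pvalb, Sst and Vip subclasses, with METH (red) above saline (grey) and exact Poisson 95% intervals, on an axis that is logarithmic above 1 CPM. Htr2c spans more than an order of magnitude inside the Sst and L4/5 IT subclasses and less than that inside Vip. The Vip cluster led by Cpne4 is at 1427 CPM in METH and 1212 CPM in saline.

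Htr2c counts were also uneven between nuclei. In METH L5 ET neurons 28 of 209 nuclei had 5 or more UMIs and held 70.6% of the subclass's Htr2c, and in saline 35 of 290 nuclei held 67.1%. Of the L4/5 IT nuclei, 38 in METH and 61 in saline had 5 or more Htr2c UMIs and held 59.4% and 57.4% of them. In the same subclass the nuclei with 5 or more Htr2a UMIs held 25.5% in METH and 17.7% in saline, so Htr2c was the more concentrated of the pair there. RefSeq (assembly GRCr8) lists a small nucleolar RNA gene and several microRNA genes that overlap Htr2c, and further genes that overlap Htr4 (LOC108348797) and Htr7 (LOC108353431). How reads of overlapping genes were divided is not known, so the counts of these 3 receptors are uncertain to that extent.

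Htr3a, the ion channel subunit, was a gene of interneurons. Inhibitory nuclei held 327 of the 381 Htr3a UMIs of used METH nuclei (85.8%) and 170 of the 206 of saline nuclei (82.5%). Sncg interneurons had 171 UMIs (194 CPM, 166 to 226) in METH and 68 UMIs (164 CPM, 127 to 208) in saline. Vip interneurons had 103 UMIs (90.3 CPM, 73.7 to 109) in METH and 73 UMIs (87.4 CPM, 68.5 to 110) in saline. Lamp5 interneurons, the neurogliaform cells, followed at 24.2 CPM in METH and 15.3 CPM in saline. These 3 subclasses are the ones derived from the caudal ganglionic eminence. Pvalb (5.83 and 3.89 CPM) and Sst (6.46 and 5.61 CPM) interneurons were lower, and deep IT neurons had 0 UMIs in both libraries, which allows up to 2.35 CPM in METH and 1.71 CPM in saline. A UMI of Htr3a was seen in 62.2% of METH and 50.6% of saline Sncg nuclei, against 0 of 428 METH and 0 of 520 saline astrocytes, counts that allow a share of up to 0.701% in METH and 0.577% in saline. Thinned to 1000 UMIs, the Sncg shares were 18.5% in METH and 16.5% in saline. The sister subunit gene Htr3b had 10 UMIs in METH and 5 UMIs in saline inhibitory nuclei.

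Htr4, a Gs-coupled receptor, was concentrated in a single excitatory subclass. L5/6 NP neurons had 1330 UMIs over 236 METH nuclei (855 CPM, 810 to 903) and 853 UMIs over 213 saline nuclei (889 CPM, 830 to 951). They held 73.6% of all Htr4 UMIs of used METH nuclei and 65.4% of those of saline nuclei, from 10.8% of METH and 6.02% of saline excitatory nuclei. Htr4 headed the list of genes that set this cluster apart although it was left out of the clustering. The cluster was named for its near-projecting markers (level 0.769), with Vwc2l among its top 10 genes, and its level of L6 CT markers was 0.609. A UMI of Htr4 was seen in 90.7% (86.2 to 94.1) of METH and 88.3% (83.2 to 92.3) of saline L5/6 NP nuclei. After thinning to 1000 UMIs the shares were 49.2% and 50.9%. In astrocytes the share before thinning was 0.701% in METH, against 0 of 520 nuclei in saline, and after thinning 0.235% in METH and 0 of 505 nuclei in saline.

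Every other excitatory subclass was far lower in Htr4. L5 ET neurons had 26.6 CPM in METH and 16.4 CPM in saline, L6 CT neurons 8.33 and 14.3 CPM, and the remaining excitatory subclasses between 3.14 and 6.90 CPM in METH and between 3.33 and 7.25 CPM in saline. The second group with Htr4 was the Vip interneurons, with 128 UMIs (112 CPM, 93.6 to 133) in METH and 121 UMIs (145 CPM, 120 to 173) in saline. The other interneuron subclasses shown lay between 4.03 and 11.7 CPM in METH and between 5.11 and 15.8 CPM in saline. Htr7, the other Gs-coupled receptor of the set, had 11 UMIs in METH and 15 UMIs in saline excitatory nuclei, or 0.483 and 0.583 CPM. In inhibitory nuclei it had 3 UMIs in METH and 6 UMIs in saline.

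UMIs of receptors that share a subclass were found together in some nuclei. Of the L5/6 NP nuclei, 29.7% (23.9 to 35.9) in METH and 30.5% (24.4 to 37.2) in saline had UMIs of both Htr4 and Htr2c. Nuclei with both Htr3a and Htr2c made up 26.1% of METH and 26.6% of saline Sncg nuclei. In Vip nuclei Htr4 and Htr3a were seen together in 6.52% (3.70 to 10.5) of METH and 2.31% (0.756 to 5.32) of saline nuclei. In METH, Htr4 was seen in 25.4% of Vip nuclei with Htr3a and 34.5% of those without, and in saline in 12.5% and 33.5%. L5/6 NP nuclei with an Htr4 UMI had a median depth of 6103 UMIs, against 5518 without, in METH, and of 4339 against 2894 in saline. The part of depth in these shares was not tested.

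Subclass patterns of the well-counted receptors were alike in METH and saline. Over 12 neuron subclasses, log2(CPM + 1) in METH and in saline correlated at a Pearson r of 0.946 for Htr2a, 0.958 for Htr2c and 0.979 for Htr4 (Spearman rho 0.902, 0.965 and 0.867). The points are subclasses of the same 2 libraries and share their depth, so these values are a description. Among 9941 genes with at least 200 UMIs in each library, those whose subclass pattern was most like that of Htr4 were Cpeb2 (r 0.886 in METH and 0.942 in saline), Rock1 (0.922 and 0.876) and Lrp4 (0.845 and 0.952). For Htr2a they were Camkk2 (0.819 and 0.820), Nav3 (0.785 and 0.848) and Glcci1 (0.785 and 0.849). For Htr2c they were Dscam (0.851 and 0.882), AABR07033720.1 (0.835 and 0.878) and Ccser1 (0.881 and 0.827). The other 6 receptors had too few UMIs for this measure.

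The comparison of METH with saline addressed receptor levels within matched cells after repeated METH. A ratio was given for genes that reached 100 UMIs in the libraries together and 20 CPM in one of them. Such a measured gene was called where its ratio was past 1.5-fold (log2 0.585) and its whole interval was too. In excitatory neurons 3 of the 9 genes could be measured and 1, Htr4, was called, where 0.336% of the 7145 measured genes were. In inhibitory neurons 4 genes could be measured and 0 were called, where 0.278% of 7547 were. In the 11 subclasses with a measured receptor 0 receptors were called. The share of all measured genes called was 0.327% in L2/3 IT, 0.155% in Pld5, 0.312% in L4/5 IT, 0.188% in deep IT, 0.342% in L5 ET, 0.139% in L5/6 NP and 0.391% in L6 CT neurons. Among interneurons it was 0.167% in Pvalb, 0.341% in Sst, 0.119% in Vip and 0.108% in Sncg. No receptor could be measured in astrocytes, oligodendrocytes, their precursors, endothelial or mural nuclei.

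Htr4 in excitatory neurons had 1501 UMIs (65.9 CPM, 62.6 to 69.3) in METH and 1035 UMIs (40.3 CPM, 37.8 to 42.8) in saline, giving a log2 ratio of 0.71 (0.60 to 0.83). Within L5/6 NP neurons, which held most of these UMIs, the log2 ratio was -0.056 (-0.18 to 0.070). Without L5/6 NP nuclei, a split chosen after seeing the data, the excitatory level was 8.06 CPM in METH and 7.35 CPM in saline, giving a log2 ratio of 0.13 (-0.18 to 0.44). With the subclasses weighted alike in both libraries the ratio turned to -0.037 (-0.15 to 0.078). L5/6 NP nuclei were 10.8% of METH and 6.02% of saline excitatory nuclei. The call itself was close to its limit, since the lower bound of 0.60 lay just past log2 0.585. It was lost without doublet removal (0.66, 0.55 to 0.77), with a minimum of 200 genes per nucleus (0.70, 0.58 to 0.81) and with each nucleus thinned to 1000 UMIs (0.59, 0.30 to 0.88). Of the 1501 METH UMIs, the highest nucleus held 1.93%.

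**Figure D4:**
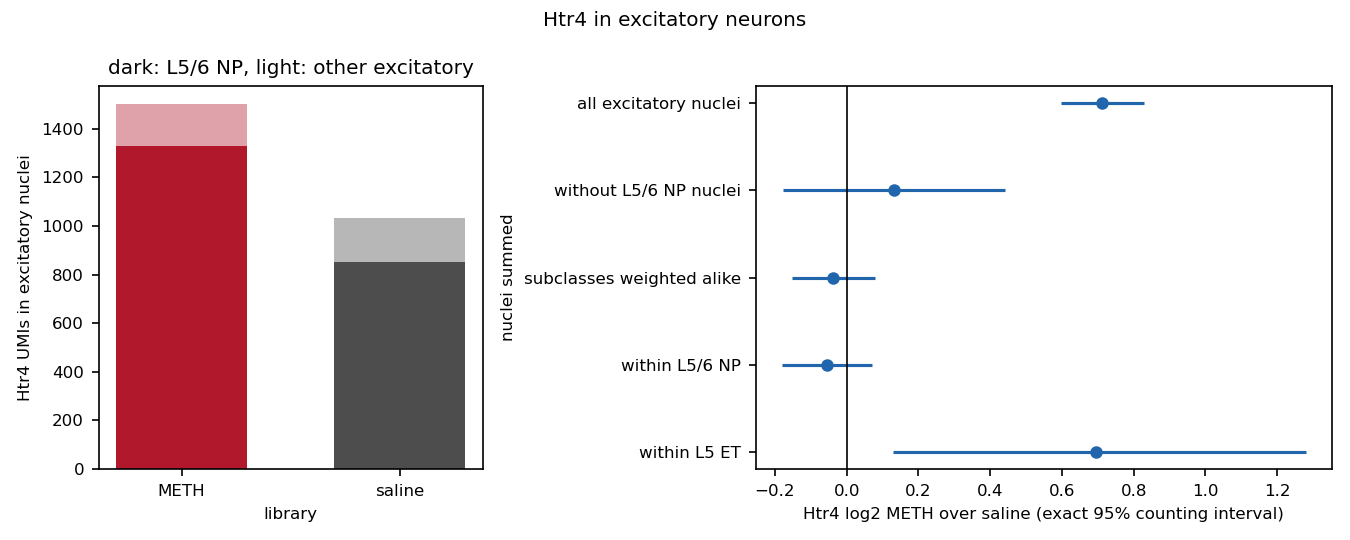
Left, Htr4 UMIs of excitatory nuclei in the METH and the saline library, with L5/6 NP nuclei dark and all other excitatory nuclei light. Right, log2 METH over saline of Htr4 with 95% counting intervals for different sets of nuclei. It is 0.71 over all excitatory nuclei, 0.13 without L5/6 NP nuclei and -0.037 with subclasses weighted alike. Within L5/6 NP it is -0.056 and within L5 ET neurons 0.70. The intervals are exact, except for a normal approximation where subclasses are weighted alike.

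In L5 ET neurons Htr4 had 73 UMIs in METH and 42 in saline, giving a log2 ratio of 0.70 (0.13 to 1.28). It met a looser rule, a ratio past 1.5-fold with an interval that does not hold 0, as 1 of 3 measured receptors there, where 2.85% of the 7026 measured genes met it. Of the 73 METH UMIs, 4 of 209 nuclei held 41.1%. In inhibitory neurons Htr4 had 199 UMIs (23.1 CPM) in METH and 181 (30.4 CPM) in saline, giving a log2 ratio of -0.40 (-0.70 to -0.099). Without doublet removal that ratio was -0.16 with an interval that held 0 (-0.44 to 0.12). In Vip interneurons alone the log2 ratio was -0.37, and its interval reached 0 (-0.74 to 0.0027).

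Htr2c was lower in METH in all 4 excitatory subclasses where it could be measured. The log2 ratio was -0.71 (-0.98 to -0.45) in L6 CT, -0.48 (-0.66 to -0.31) in L5 ET, -0.46 (-0.69 to -0.23) in L5/6 NP and -0.23 (-0.39 to -0.067) in L4/5 IT neurons. The other excitatory subclasses had too few Htr2c UMIs for a ratio and were not lower throughout. The Pld5 cluster was higher in METH, with 45 UMIs (22.3 CPM) against 50 (13.9 CPM) in saline. Its highest METH nucleus held 37.8% of the METH UMIs. Deep IT neurons had 14.1 CPM in METH and 13.7 CPM in saline, and layer 2/3 IT neurons 5.01 and 5.02 CPM. Over all excitatory neurons Htr2c had 1612 UMIs (70.8 CPM) in METH and 2174 (84.5 CPM) in saline, giving a log2 ratio of -0.26 (-0.35 to -0.16). Of these subclass values that in L6 CT neurons met the looser rule, as 1 of 2 measured receptors there, where 3.83% of the 6914 measured genes met it. The libraries differed in depth, with medians of 7404 UMIs per L6 CT nucleus in METH and 5150 in saline and of 12074 and 7760 per L5 ET nucleus. Counted per nucleus, the direction turned in L5 ET (0.092), L5/6 NP (0.085) and L4/5 IT neurons (0.32), and the L6 CT ratio was -0.19 (-0.46 to 0.078). With each nucleus thinned to 1000 UMIs the ratio was -1.29 in L6 CT, -0.47 in L5 ET, -0.055 in L5/6 NP and 0.17 in L4/5 IT neurons.

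In Sncg interneurons Htr2c was lower in METH at a log2 ratio of -0.84. The interval bound of -0.58 (the other being -1.10) stopped just short of the 1.5-fold line. That bound passed the line without doublet removal (-0.60). It also did so with every gene's highest count in a nucleus subtracted from each library (-0.69). Htr2c met the looser rule, as 1 of 2 measured receptors there, where 3.49% of the 2781 measured genes met it. A UMI of Htr2c was seen in 39.5% of METH and 43.0% of saline Sncg nuclei, with intervals that overlapped. The 14 METH nuclei with 5 or more UMIs held 77.8% of the subclass's Htr2c, and the 18 saline nuclei 87.9%. Counted per nucleus the log2 ratio was -0.35 (-0.60 to -0.087). Vip (0.17, -0.042 to 0.38) and Sst (0.12, -0.11 to 0.35) interneurons had ratios whose intervals held 0. The Vip ratio was -0.079 with every gene's highest count in a nucleus subtracted in the same way. The Sst cluster led by Trabd2b and Tnc had 43 Htr2c UMIs (88.0 CPM) in METH and 59 (192 CPM) in saline, giving a log2 ratio of -1.12 (-1.72 to -0.53), while that led by Qrfpr had a ratio of 0.24 (-0.032 to 0.52). In the Trabd2b cluster few nuclei carried these counts. There 5 of 84 METH nuclei held 81.4% of the Htr2c UMIs, and 4 of 72 saline nuclei held 69.5%.

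Htr2a in excitatory neurons had 1831 UMIs (80.4 CPM) in METH and 2499 (97.2 CPM) in saline, giving a log2 ratio of -0.27 (-0.36 to -0.19). Within the Pld5 cluster, its highest subclass, the ratio was 0.0056 (-0.19 to 0.20), and within layer 2/3 IT neurons it was -0.011 (-0.19 to 0.17). Of its other excitatory subclasses only L4/5 IT neurons had an interval without 0, at -0.19 (-0.33 to -0.045). The Pld5 cluster made up 9.36% of METH and 16.0% of saline excitatory nuclei, and with subclasses weighted alike the excitatory ratio was -0.12 (-0.21 to -0.032). Counted per nucleus it turned to 0.24. In Pvalb interneurons the ratio was 0.20 (-0.095 to 0.50).

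Htr3a in inhibitory neurons had 327 UMIs (37.9 CPM) in METH and 170 (28.6 CPM) in saline, giving a log2 ratio of 0.41 (0.14 to 0.69). The ratio was 0.24 (-0.17 to 0.67) within Sncg and 0.048 (-0.40 to 0.50) within Vip interneurons, both with intervals that held 0. Sncg nuclei, the richest in Htr3a, were 9.21% of METH and 6.41% of saline inhibitory nuclei. Without them, a split chosen after seeing the data, the inhibitory ratio was 0.13 (-0.24 to 0.50).

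**Figure D5:**
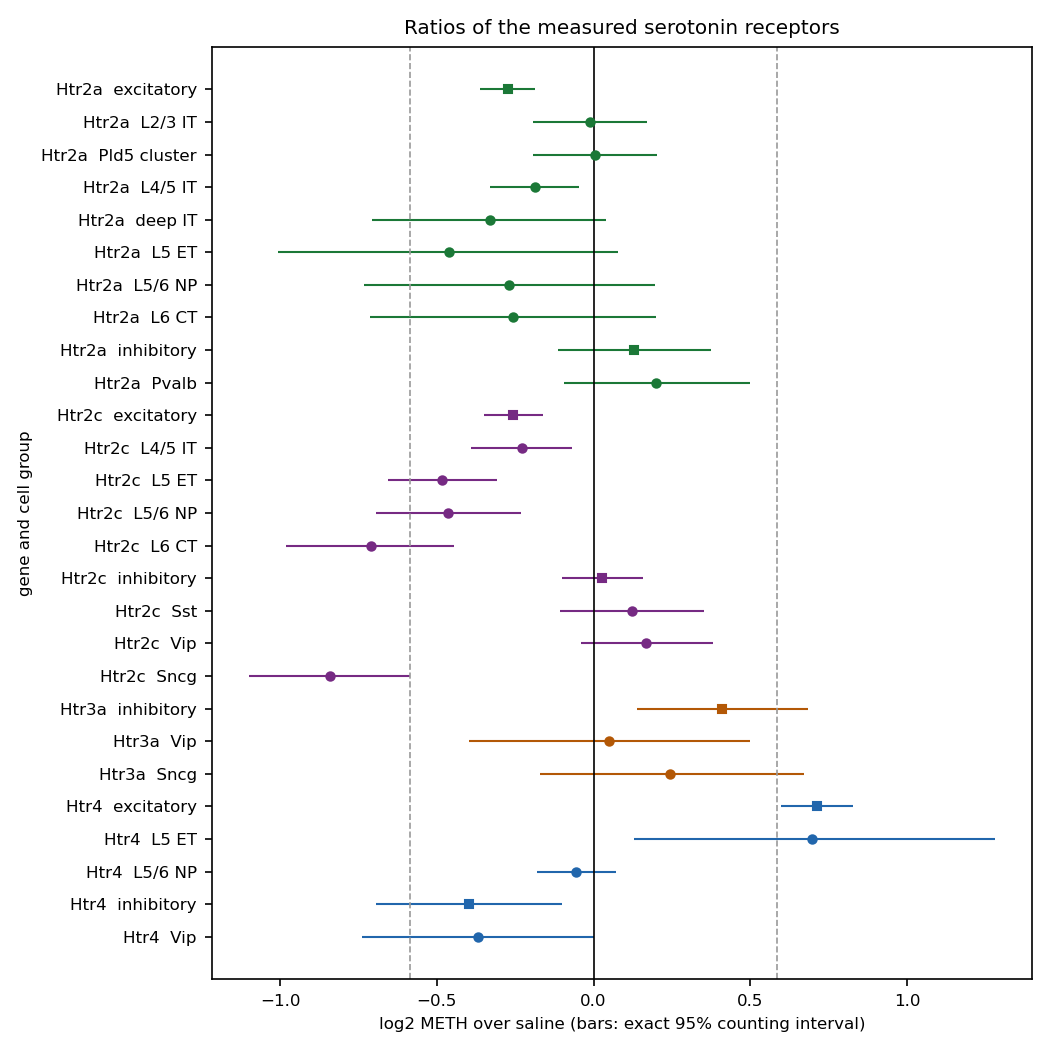
Log2 METH over saline of each receptor in each class (squares) and subclass (circles) where it could be measured, with exact 95% counting intervals and dashed lines at 1.5-fold. Htr4 over all excitatory nuclei is the value whose interval lies wholly past 1.5-fold, at 0.71, and Htr2c in Sncg interneurons, at -0.84, stops just short of it.

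Other genes of serotonin signalling, a list of 50 for transport, synthesis, breakdown, the remaining receptors and their coupled effectors, had medians near those of all genes in both neuron classes. In excitatory neurons 28 of the 50 could be measured, 0 were called, 11 were above and 17 below 0, and the median log2 ratio was -0.010, against -0.012 over all measured genes. In inhibitory neurons 27 could be measured, 0 were called, 15 were above and 12 below 0, and the median was 0.0029, against -0.0092 over all measured genes. Elsewhere the median stood farther from that of all genes in Pvalb interneurons (0.10 against -0.0079, 26 measured), oligodendrocytes (0.048 against -0.12, 10 measured) and mural nuclei (-0.34 against 0.020, 2 measured). These list medians depended on the processing. With nuclei matched on UMIs they were 0.014, -0.066 and -0.35, and with TMM factors 0.13, 0.23 and -0.28, in the same order. In astrocytes 1 of 18 measured members was called, lower in METH. The share of the 4646 measured astrocyte genes that were called is not given here, so this count has no background beside it. The largest ratio in excitatory neurons was that of Gna14, a Gq-family G protein subunit, with 50.4 CPM in METH and 67.4 CPM in saline (log2 -0.42, -0.53 to -0.31). In inhibitory neurons Gna14 went the other way, with 98.1 CPM in METH and 71.4 CPM in saline (0.46, 0.29 to 0.63). Adcy8, a calcium-stimulated adenylyl cyclase, had 56.8 CPM in METH and 70.2 CPM in saline excitatory neurons (-0.31, -0.41 to -0.20). Slc18a2, the vesicular monoamine transporter, had 30.0 and 35.7 CPM there (-0.25, -0.39 to -0.10). Maoa, the monoamine oxidase that breaks down serotonin, had 17.4 CPM in METH and 21.0 CPM in saline inhibitory neurons (-0.27, -0.62 to 0.083). Gnai2, a Gi subunit, had 35.6 and 30.9 CPM there (0.20, -0.064 to 0.48). The ratios of these single genes are of class sums, and the part of subclass makeup in them was not tested.

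Of the receptors outside the 9, Htr2b had 48.3 CPM in METH and 38.2 CPM in saline excitatory neurons (log2 0.34, 0.21 to 0.47) and 55.9 and 41.5 CPM in inhibitory neurons (0.43, 0.21 to 0.66). It was also at 37.5 CPM in METH and 45.9 CPM in saline astrocytes, and RefSeq lists it as overlapping the proteasome gene Psmd1, so its counts are uncertain. The part of subclass makeup in its class ratios was not tested either. Htr6, a Gs-coupled receptor, had 134 UMIs (5.89 CPM) in METH and 158 UMIs (6.14 CPM) in saline excitatory nuclei. Htr5a had 38 UMIs in METH and 49 UMIs in saline excitatory nuclei. Slc6a4, the serotonin transporter of raphe neurons, had 13 UMIs in METH and 11 UMIs in saline excitatory nuclei, and Tph2, the rate-limiting enzyme of neuronal serotonin synthesis, had 6 and 5.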

How the data were processed

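Nuclear RNA of a METH and a saline library was analysed. The deposited values are raw UMI counts of each gene in each barcode, which Cell Ranger 7.0.0 wrote, per the file headers. The submitters' processing notes name hg38, a human build, while the gene identifiers are rat Ensembl ones. Neither the rat build nor the use of intronic reads is stated.

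Nuclei needed 500 detected genes and no more than 5% of UMIs from mitochondrial genes. Scrublet (scanpy 1.11.5, expected doublet rate 0.06) marked doublets, which were removed (328 METH, 5.98%, and 401 saline, 5.80%). Clustering used log values after scaling each nucleus to 10000, 2000 variable genes without the receptors, 30 components and 15 neighbours. Leiden resolution was 1, then 0.5 within neurons, and the libraries were not integrated. Clusters took the class whose fixed markers reached 0.4 of the highest cluster's level. Those with a second unrelated class at that level were called mixed, those with over 90% of nuclei from 1 library and those without a clear class stayed unnamed, and a subclass needed a lead of 0.1 or a marker of its own among the top 10 genes. A neuron cluster whose top 10 genes held markers of other subclasses alone stayed unnamed, whatever its lead. These naming thresholds were set after the markers were seen. Counts were then summed per class and library. TMM factors came from edgeR 4.0.16. Weighting subclasses alike was done over the clusters within them, with the same weights in both libraries. The size rule and intervals were tested on simulated Poisson counts, the model that the intervals assume. That test could not cover UMIs that gather in few nuclei.

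The receptors and gene lists were chosen with earlier results of these data known. Named were the 9 receptors, the 3 genes most like each receptor with at least 200 UMIs in each library, and, of the serotonin list, up to 4 members with the largest absolute log2 ratio per neuron class.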

Additional observations from a re-analysis of the deposited data

Results flagged for a closer look

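The ratio of Htr4 had opposite signs in the 2 neuron classes. The log2 ratio of METH over saline was 0.71 in excitatory neurons and -0.40 in inhibitory neurons. With 1 library per group the difference between the classes was not tested. In inhibitory neurons the interval was -0.70 to -0.099, and within L5/6 NP neurons, which held most of the excitatory Htr4, the ratio was -0.056. The inhibitory ratio was not called and was -0.16 (-0.44 to 0.12) without doublet removal. With subclasses weighted alike the excitatory ratio was -0.037, the same sign as the inhibitory one.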

How the results depend on the processing

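No paired analysis was possible because each group has 1 library. Across 27 ratios and their alternatives, 234 of 286 values stayed inside the interval first given. Htr4 in excitatory neurons was 0.71 and turned to -0.037 with subclasses weighted alike, was 1.23 per nucleus, 1.70 with nuclei matched on UMIs and 0.59 thinned to 1000 UMIs, and was 0.13 without L5/6 NP nuclei, an alternative added after seeing the data. The cause of the matched value was not tested. The count of called receptors in excitatory neurons, 1, was 0 without doublet removal, with at least 200 genes per nucleus, after thinning and with subclasses weighted alike. That in inhibitory neurons, 0, was 1 per nucleus (Htr3a, 0.88). Counting per nucleus leaves depth unscaled, and METH inhibitory nuclei were the deeper ones (median 6116 UMIs, saline 4379). How many of all inhibitory genes would pass when counted this way is not shown. The Htr3a call therefore cannot be set against a background or told apart from depth. Htr2c in METH Vip neurons was 364 CPM without doublet removal, against 415 CPM. UMIs per nucleus moved 24 of 27 ratios beyond their interval and kept the sign of 14. Thinning moved 15, and matching on UMIs moved 6 (Htr2c in Sncg to -1.42). Weighting alike moved 3 of 14 ratios, reversed 1 more beyond its interval, and kept the sign of 11. Leiden resolution 2, TMM factors and the gene minimums moved 0. Of the 27 ratios, 21 kept their sign after thinning, 24 with at least 1000 genes and 24 without doublet removal. With TMM factors 26 kept it, and with Leiden resolution 2 all 27. Thinning moved the L6 CT ratio of Htr2c to -1.29. Leaving out a library in turn was not possible with 1 per group. Depth limits the 5 sparse receptors, which had 51 UMIs or fewer per library.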

Other observations

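Some nuclei outside the named classes also carried receptor UMIs. The unnamed cluster, with Ndst4, Tfap2d and Ptprc among its top genes, held 250 Htr2c UMIs over 151 METH nuclei (355 CPM, 312 to 402) and 9 UMIs over 61 saline nuclei (83.9 CPM, 38.4 to 159). Its median depth was 2324 UMIs per nucleus in METH and 1151 in saline. In METH, 18 of its nuclei held 70.0% of these UMIs. Htr2a there was at 65.3 CPM in METH and 55.9 CPM in saline, and Htr4 at 7.10 and 37.3 CPM.

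Clusters held almost wholly by the METH library had 157 METH and 4 saline nuclei in all. The METH nuclei had 7 Htr1f UMIs (13.9 CPM, 5.59 to 28.7), above the 1.27 CPM of METH excitatory neurons. The interval overlapped with that of METH L5 ET neurons (4.38 CPM, 2.26 to 7.64). The 4 saline nuclei had 0 Htr1f UMIs, which allows up to 445 CPM. Most of the 157 METH nuclei formed a cluster with inhibitory markers and with Meis1 and Pbx3 among its top genes. That cluster had 125 METH nuclei and 1 saline nucleus, and it entered no comparison. Htr3a was at 21.9 CPM in the 157 METH nuclei.

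Lamp5 interneurons had 32 Htr2c UMIs (43.0 CPM) in METH and 6 UMIs (10.2 CPM) in saline, below the 100 UMIs required for a call, and 1 METH nucleus held 24 of the 32.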
